A study of Homo sapiens with 4 samples.

Results

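The data set was the list of differentially methylated regions (DMRs) between 2 SKOV3 clones, shC-S with a control shRNA and sh-LY75-S with a shRNA that suppresses LY75. Every row of that list was taken as 1 member, which gave 51243 DMRs of the 100511 rows in all lists of the series, or of 72455 distinct regions. SKOV3, an established line of human ovarian cancer cells, has a mesenchymal (M) phenotype, which shC-S kept, while sh-LY75-S had an epithelial (E) phenotype. The series comprised 4 libraries, 1 per clone, made by reduced representation bisulfite sequencing (RRBS), and compared M with E clones to find DNA methylation changes that go with LY75 loss. The other clones, LY75-KO-S, in which LY75 was inactivated by CRISPR, and LY75-R-S, the knockdown cells with LY75 expressed again, served for context alone. Each clone had 1 library, so a difference between clones cannot be told apart from a difference between the conditions, and no replicate error could be given.

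In RRBS, DNA is cut with MspI at CCGG, short fragments are converted with bisulfite, and percent methylation is the part of the reads in which a CpG still shows C. Each DMR was a window of 1000 bp with a difference in percent methylation of at least 25 percentage points. Positive differences were taken to mean hypermethylation in sh-LY75-S, because a single order of subtraction gave the stated direction of the genes that the study selected, so the directions of those genes are not a finding. The list held neither the methylation level of each clone nor read numbers, so the depth behind each value is unknown. LY75 (also DEC-205 or CD205) is an endocytic receptor of the mannose receptor family, best known on dendritic cells. In epithelial-mesenchymal transition (EMT), factors such as SNAI1, TWIST1 and ZEB2 repress epithelial genes such as CDH1. Methylation of a CpG-rich promoter usually accompanies silencing, most CpG-rich promoters are kept free of it in normal cells, and developmental regulators such as the HOX genes often gain it in cancer. Gene expression was not part of these data.

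The start sites of 3 genes show how CpGs are laid out in regions that the results turn on. Given are up to 200 bases of GRCh37 (the build also named hg19) directly upstream of the canonical transcription start site (TSS), inside the DMR that holds it, 5′ to 3′ on the strand of the gene, with CpGs in capitals. LY75 was the targeted gene, CXorf38 had a complete gain on chromosome X, and NKX1-1 lay in a long run of hypomethylated DMRs.
LY75: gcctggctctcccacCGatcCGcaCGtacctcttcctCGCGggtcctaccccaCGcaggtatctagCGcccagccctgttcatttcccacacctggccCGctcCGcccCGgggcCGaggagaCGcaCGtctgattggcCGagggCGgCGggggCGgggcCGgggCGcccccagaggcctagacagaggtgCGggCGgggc
CXorf38: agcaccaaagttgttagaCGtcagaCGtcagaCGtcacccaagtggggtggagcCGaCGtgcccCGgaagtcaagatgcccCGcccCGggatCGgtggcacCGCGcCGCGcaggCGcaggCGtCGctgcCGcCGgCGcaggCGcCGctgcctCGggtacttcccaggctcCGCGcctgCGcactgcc
NKX1-1: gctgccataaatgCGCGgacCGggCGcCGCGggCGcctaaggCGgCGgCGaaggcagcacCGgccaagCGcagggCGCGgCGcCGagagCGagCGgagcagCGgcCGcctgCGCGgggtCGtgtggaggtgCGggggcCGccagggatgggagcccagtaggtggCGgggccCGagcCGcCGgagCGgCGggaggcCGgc
The LY75 stretch (chr2:160761268-160761467, minus strand) held 21 CpGs in a DMR of 87.7 points. That of CXorf38 (chrX:40506814-40507000, minus strand) held 25 CpGs in a DMR of 100 points, and that of NKX1-1 (chr4:1400231-1400430, minus strand) 32 CpGs in a DMR of -70.5 points. Dense CpGs were thus present at these gains and at the loss alike.

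Most DMRs were gains of methylation in SKOV3-E cells. Of the 51243 DMRs, 33139 were hypermethylated (64.7%) and 18104 hypomethylated in sh-LY75-S. The quartiles of the absolute differences were 35.7, 50.0 and 75.7 points, and 27255 DMRs (53.2%) had 50 points or more. At the threshold itself, 1275 DMRs lay between 25 and 26 points, and regions under 25 points were not listed. Some values recurred: 2600 DMRs were at exactly 50 points and 6697 at 100 points, both within 0.005 points. Of those at 100 points, 4422 were hypermethylated and 2275 hypomethylated.

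Differences were most often complete in regions with few CpGs. With CpGs counted in the reference, 25753 DMRs were CpG-poor (under 20 CpGs), 20315 intermediate and 5175 CpG-rich (50 or more). A difference of 100 points was found in 17.1% of the CpG-poor, 10.5% of the intermediate and 3.05% of the CpG-rich DMRs. The hypermethylated share was 61.9% in CpG-poor, 69.8% in intermediate and 58.2% in CpG-rich DMRs, so it was not ordered by CpG number. The order of the outer classes depended on where they were drawn: with a boundary at 30 CpGs the CpG-rich share was 0.108 points above the CpG-poor one instead of below it, where the difference was -3.72 points. To place the DMRs among the regions that the assay could see, regions were counted as reachable when reads of 50 bases from MspI fragments of 40 to 220 bp would hold a CpG. Of 371631 reachable regions, 12.6% were listed, with 11.6% of the CpG-poor, 12.9% of the intermediate and 17.0% of the CpG-rich ones.

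**Figure D1:**
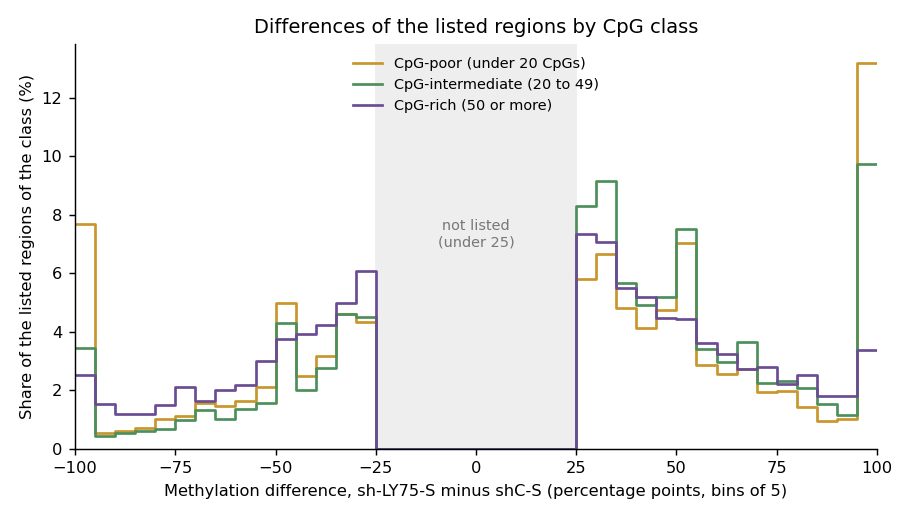
Share of the DMRs of each CpG class (y axis, %) by methylation difference between sh-LY75-S and shC-S (x axis, percentage points, bins of 5). All classes have more DMRs on the positive side, and the bins next to 100 and -100 points stand out for CpG-poor DMRs, of which 17.1% were at a complete difference, against 3.05% of the CpG-rich ones.

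Gains made up a smaller share of the DMRs at promoters than elsewhere. A DMR was counted as a promoter DMR when it overlapped 2 kb on either side of a protein-coding TSS, and otherwise as exonic, intronic or intergenic. Of 8006 promoter DMRs, 4452 (55.6%) were hypermethylated, against 63.7% of 5174 exonic, 64.4% of 14233 intronic and 68.1% of 23830 intergenic DMRs. Reachable promoter regions were also listed more often, in 15.2% of cases, than intronic ones (10.3%). The direction within promoters was much alike in CpG-poor (58.8%), intermediate (54.7%) and CpG-rich (55.0%) DMRs. Outside of promoters it was not: intergenic DMRs of intermediate CpG number were hypermethylated in 75.7% of cases and CpG-poor intronic ones in 59.6%. Within promoters the window mattered, and DMRs over the TSS itself were hypermethylated in 64.5% of cases.

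Across chromosomes, the hypermethylated share ran from 54.5% on chromosome 4 (1993 DMRs) to 73.4% on chromosome 22 (1515 DMRs), among chromosomes with 200 or more DMRs. Chromosomes 13 (55.4%) and 18 (56.2%) were near the low end, and chromosomes X (72.0%), 14 (71.0%) and 17 (70.6%) near the high end. Among the same chromosomes, reachable regions were listed most often on chromosome 20 (16.3%) and least often on chromosome 4 (10.9%). The size of the differences hardly varied with the chromosome, and the median absolute difference lay between 50.0 and 50.5 points on each of them.

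**Figure D2:**
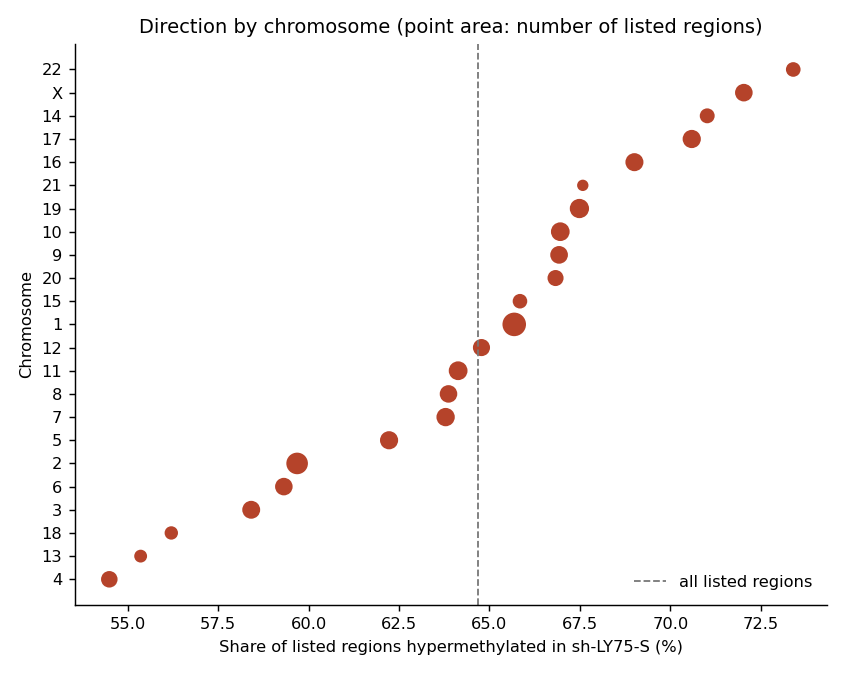
Share of DMRs hypermethylated in sh-LY75-S (x axis, %) for each chromosome with 200 or more DMRs (y axis, ordered by the share), with the area of a point proportional to its number of DMRs and the share over all DMRs (64.7%) as a dashed line. Chromosomes 4, 13 and 18 lie lowest, from 54.5 to 56.2%, and chromosomes X and 22 highest, with 72.0 and 73.4%.

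On chromosome X, CpG-rich promoters, a group singled out after its values had been seen, were often listed and mostly as gains. Of 622 reachable CpG-rich promoter regions on X, 35.9% were listed, against 14.6% of 18153 on the autosomes. Of the 223 DMRs at such promoters on X, 186 were hypermethylated (83.4%) and 37 hypomethylated, while 1396 of 2655 on the autosomes (52.6%) were hypermethylated. Of these DMRs, gains and losses together, 36.8% had 50 points or more on X, against 48.2% on the autosomes. Away from CpG-rich promoters, X and the autosomes were closer, with 70.8 and 65.0% hypermethylated and 13.5 and 12.4% of reachable regions listed. In the comparison of LY75-KO-S with LY75-R-S, 58 of 109 DMRs at CpG-rich X promoters (53.2%) were hypermethylated in LY75-KO-S.

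The direction also followed the neighbourhood, a pattern found after the list had been examined. All DMRs were ordered by the number of reachable regions in their 1 Mb block, which is high where the genome is rich in genes and CpGs, and divided into 10 density classes of equal size. In the sparsest class (up to 57 reachable regions per 1 Mb), 44.6% of the DMRs were hypermethylated. The share was 58.4% in class 3, 70.7% in class 5 and 72.1% in the densest one. It rose over the first 5 classes and changed little after that. CpG-poor DMRs showed the widest range, from 40.8% (3887 DMRs) in the sparsest to 77.3% (541 DMRs) in the densest class. CpG-rich DMRs did not follow it, with 65.0% in the sparsest and 57.6% in the densest class. In the comparison of LY75-KO-S with LY75-R-S, the share stayed between 53.4 and 55.7% over all classes. On a fixed grid of 5 Mb, 156 blocks had 100 or more DMRs, and their shares were not compared with density. The lowest share was 31.4% of 102 DMRs on chromosome 15 from 95000001 to 100000000, and the highest 86.0% of 379 DMRs in the first 5 Mb of chromosome 5. The 5 Mb block around the HOXA cluster on chromosome 7, from 25000001 to 30000000, was among the 5 lowest, with 42.3%.

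**Figure D3:**
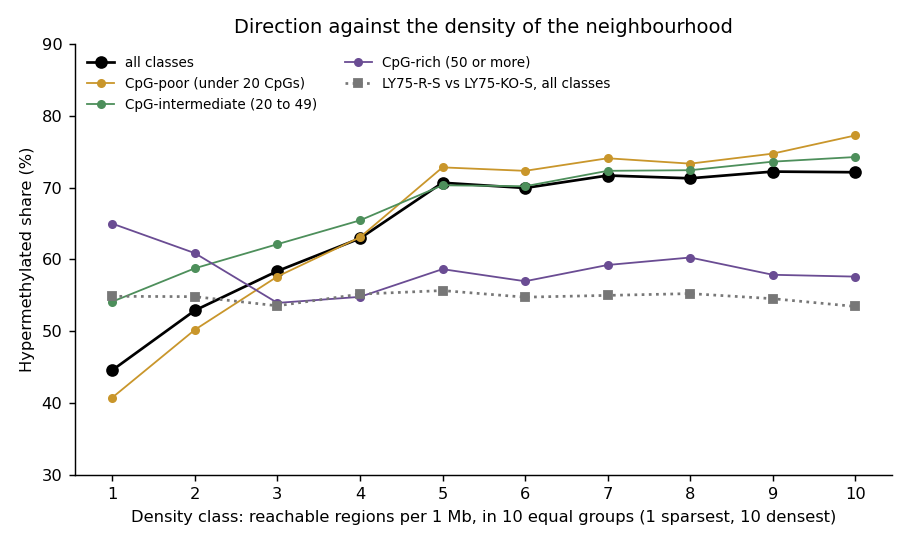
Hypermethylated share (y axis, %) in 10 equal density classes of the DMRs, ordered by reachable regions per 1 Mb (x axis, from sparsest to densest), for all DMRs, for each CpG class and, as a dotted grey line, for LY75-KO-S against LY75-R-S. The line for all DMRs climbs from 44.6 to 72.1%, the CpG-poor line from 40.8 to 77.3%, and the CpG-rich and dotted lines show no such climb.

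At the level of genes, more promoters had gains alone than losses alone. Of 17304 protein-coding genes with a reachable promoter region, 5889 (34.0%) had a promoter DMR: 2911 (16.8%) had hypermethylated ones alone, 2399 (13.9%) hypomethylated ones alone, and 579 had both. Among CpG-rich regions that hold a canonical TSS, 1259 were listed, 833 hypermethylated and 426 hypomethylated. The difference was complete at 22 of the hypermethylated and 8 of the hypomethylated ones.

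The complete gain with the most CpGs was at SPINT2 (a membrane-bound serine protease inhibitor on chromosome 19, 38755001 to 38756000, 97 CpGs). CXorf38, FADS6, RIOX1 (a histone demethylase), FAM83B, HUWE1 (a ubiquitin ligase), ZNF135 and CCDC160 followed in this order. Of these 8 genes, 3 lie on chromosome X, as does ZCCHC12 among the losses below. Of all 2878 CpG-rich promoter DMRs, 223 lay on X, and so few genes do not show an excess. At RIOX1 and FAM83B the next region was hypermethylated too, by 94.2 and 37.1 points. At FADS6, a fatty acid desaturase gene, the TSS region gained 100 points while the region beside it differed by -96.0 points. The complete losses were at ZNF331 (chromosome 19, 54041001 to 54042000, 88 CpGs), FEZF2, MFSD2A (a lysolipid transporter), SP9, ZCCHC12, ALX1, FAM78A and GLCE (an epimerase of heparan sulfate synthesis). FEZF2, SP9 and ALX1 encode developmental transcription factors. At FEZF2 the other listed promoter regions were hypomethylated as well, by -46.6 and -41.2 points, and at SP9 by -43.3 and -37.5 points. At ZCCHC12 the next region had a gain of 100 points, and the other listed regions at MFSD2A had 26.9 and -50 points. ZNF331, an imprinted gene with several start sites, was mixed: its other promoter DMRs had 93.5 and 41.7 points.

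The gene families below were compared with these backgrounds, in which 34.0% of genes had a promoter DMR and 55.6% of promoter DMRs were hypermethylated. Beyond the highest and lowest member of each family, the members named were chosen after their values had been seen. Genes of a family that share a promoter region or lie side by side are not independent. Promoter windows covered alternative start sites too, so some promoter DMRs lie more than 2 kb from the canonical TSS. Some genes, among them FOXC2, CDH1, CDH2, KRT8 and COL1A2, belong to several families, and their DMRs count in each.

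Promoter DMRs of EMT-inducing factors were mostly hypomethylated in SKOV3-E cells. Of 10 such factors, 5 had promoter DMRs, 4 of them losses alone and 1 a gain alone, and the other 5 had none. By region, 8 were hypomethylated and 1 hypermethylated, with a median of -75 points. ZEB2 had -100 and -91.9 points (the former on chromosome 2, 145271001 to 145272000). These 2 regions were centred 6186 and 4186 bp inside the gene from its canonical TSS, and neither held it. FOXC2 had 3 DMRs between -95.8 and -68.2 points. TWIST2 had -75 points and SNAI1, which encodes SNAIL1, had -50.7 and -43.8 points. TWIST1 was the listed factor with a gain, of 33.6 points over its TSS (chromosome 7, 19157001 to 19158000), and it had 60.2 points in LY75-KO-S against LY75-R-S.

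Promoter DMRs of epithelial identity genes were mostly hypermethylated, with 26 hypermethylated, 9 hypomethylated and a median of 52.8 points. They were present in 19 of 26 such genes, of which 10 had gains alone, 6 losses alone and 3 both. CDH1, which encodes E-cadherin, had 73.6 points over its TSS (chromosome 16, 68771001 to 68772000, 82 CpGs). In earlier work that the study cites, LY75 depletion raised E-cadherin and EpCAM and lowered N-cadherin, TWIST1 and SNAIL1. The directions at CDH1 and SNAI1 were opposite to what silencing by methylation would give for these changes. Those at EPCAM, CDH2 and TWIST1 were not opposite. Expression was not measured here, so no direction stands for it. ESRP1 and ESRP2, the splicing regulators of epithelial cells, had 4 hypermethylated DMRs each, from 31.6 to 77.1 and from 46.3 to 100 points. OVOL1, a repressor of EMT factors, had 5 of them, from 29.1 to 98.1 points. In ESRP1, ESRP2 and OVOL1 every listed promoter region was a gain. The genes with losses alone were KLF4 (-54.6 points), OVOL2 (-58.9 points), OCLN (-48.3 points), EPCAM (-31.7 points), GRHL1 (-28.6 points) and LLGL2 (-27.2 points), none with a complete difference. CRB3, a polarity gene, was mixed, with -97.1 and 78.0 points. GRHL2 had a reachable promoter but no promoter DMR, and so did EMP1, which the study took as an epithelial marker.

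Mesenchymal marker genes had as many hypermethylated as hypomethylated promoter DMRs. Of 15 with a reachable promoter, 9 had DMRs, 10 regions hypermethylated and 10 hypomethylated. This depended on the window: the hypermethylated share was 35.7% with promoters of 1 kb and 16.7% over the TSS alone. CDH2, which encodes N-cadherin, was hypermethylated at both listed regions, by 70.1 and 32.3 points (chromosome 18, 25755001 to 25757000). The receptor tyrosine kinase gene AXL was hypermethylated by 68.5 and 87.5 points, in regions centred 1372 and 7372 bp inside the gene from its canonical TSS. COL1A2 was hypomethylated by -97.8 points and PDGFRA by -73.3 and -46.4 points, whereas THY1 ranged from -99.9 to 100 points. TGFB1I1 (Hic-5), a focal adhesion protein, had 76.3 points over its TSS (chromosome 16, 31483001 to 31484000). FN1 and RUNX1 had reachable promoters without a DMR.

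Genes of cell contacts and the cytoskeleton had more hypermethylated than hypomethylated promoter DMRs, as promoters in general did. The 95% counting intervals of the shares of cadherins, claudins, keratins, collagens, and integrins and laminins all held the background of 55.6%. The type I and II cadherins had 16 hypermethylated and 9 hypomethylated promoter DMRs (median 38.5 points) and, among regions with 20 or more CpGs, ran from -56.9 points at CDH11 to 73.6 points at CDH1. CDH24, in regions with fewer, had -71.2 and 82.8 points. Claudins, which seal tight junctions, had 7 and 5, and CLDN5 had -91.9 points over the TSS and 74.4 points in a region upstream. CLDN17, in a region with few CpGs, had -100 points. Keratins had 12 and 5 (median 41.3 points). KRT7 (78.3 and 100 points), KRT8 (50.0 and 83.7 points) and KRT18 (50.0 points), keratins of simple epithelia, were hypermethylated. Collagens had 25 and 16, with COL24A1 at 100 points. The genes COL4A1 and COL4A2 share their promoter regions, which differed by -40 and 99.8 points. Integrins and laminins had 15 and 9, with LAMB3 at 100 points and LAMA5 at -100 points. Of the clustered protocadherins, a family of adhesion genes, 15 of 52 had DMRs, 14 regions hypermethylated and 4 hypomethylated. Shares of genes with DMRs were far apart among these families, from 26.5% of the keratins to 75% of the collagens.

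Promoter DMRs of developmental transcription factors were mostly hypomethylated in SKOV3-E cells. Of 39 HOX genes, which set position along the body axis, 29 (74.4%) had promoter DMRs, 44 regions hypomethylated and 14 hypermethylated, with a median of -51.9 points. All 6 promoter DMRs of HOXD3 lay between -100 and -79.6 points. HOXD11 had 4 between -100 and -56.6 points, HOXA3 had -99.5 and -78.1 points, and HOXA4 had -98.4 points. The 4 HOX genes with gains alone were HOXC5 (27.1 to 93.1 points), HOXC11 (68.5 points), HOXB4 (25.3 points) and HOXD1 (25.2 points). EVX2, next to the HOXD cluster, was hypomethylated in all 4 promoter DMRs, from -100 to -31.1 points. The study selected this gene, so its direction belongs to the choice of sign and adds nothing to the HOX pattern. T-box, GATA and PAX factors had DMRs in 24 of 30 genes (80%), with 42 regions hypomethylated and 24 hypermethylated, although the hypermethylated share was 50% over the TSS alone. PAX9 had -97.9 to -78.4 points, GATA6 -93.0 to -30.3 points and TBX2 -95.9 and -71.7 points. Against this trend, PAX8, a lineage factor of the epithelium of the female reproductive tract, was hypermethylated in all 3 promoter DMRs, by 75.5 to 91.7 points (the largest on chromosome 2, 114035001 to 114036000). Forkhead factors had 40 hypomethylated and 16 hypermethylated DMRs (median -41.3 points). FOXL2, a factor of ovarian granulosa cells, had -91.9 and -86.4 points and FOXC1 -80.7 and -74.7 points, while FOXO3 had 72.2 points. SOX factors had 21 and 10 (median -34.9 points), with SOX1 down to -92.3 points and SOX2 at -78.1 to -57.1 points. SOX17 (39.1 points) and SOX8 (up to 100 points) were among those with gains.

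**Figure D4:**
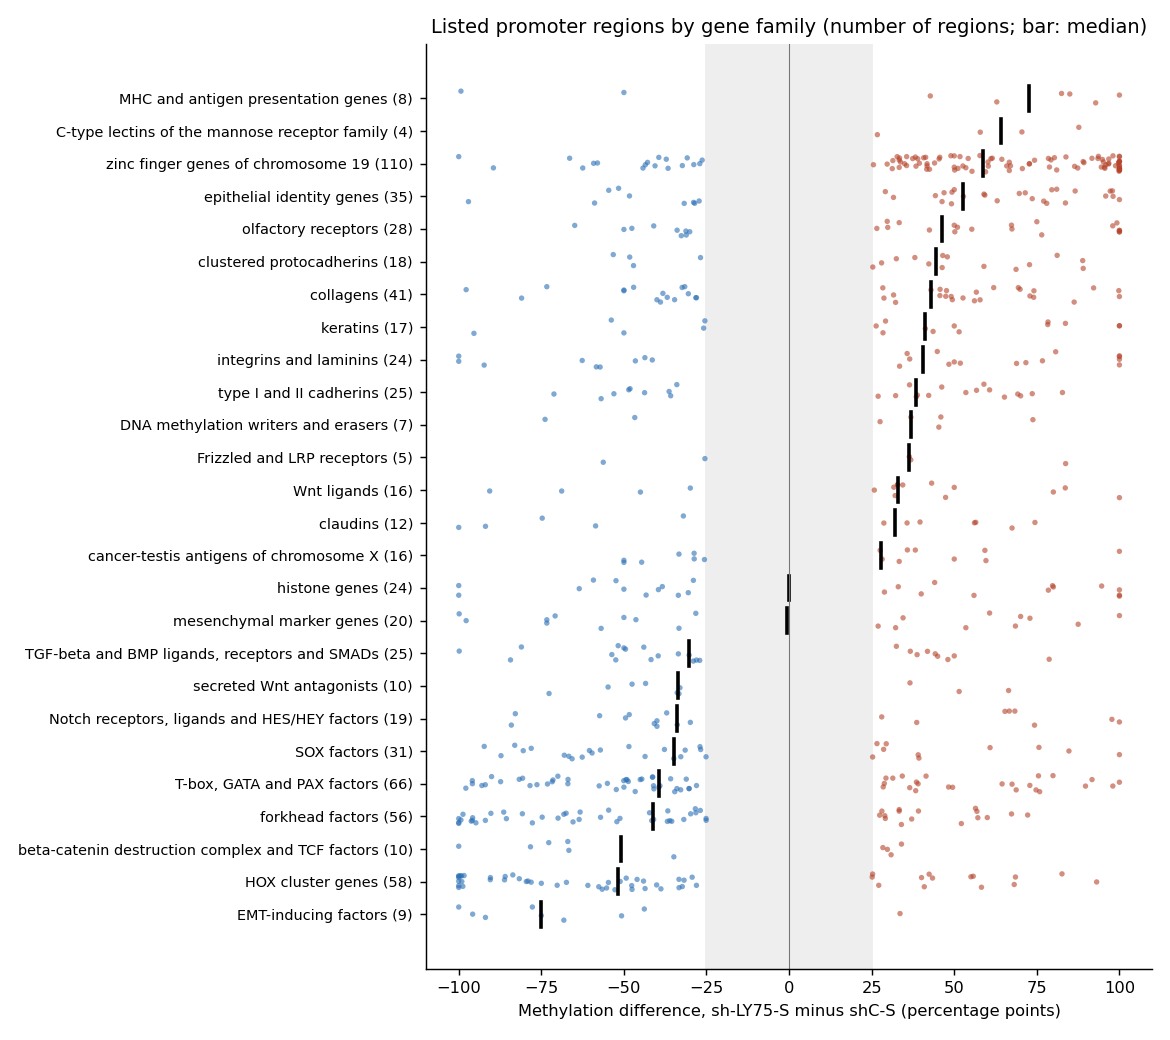
Methylation difference (x axis, percentage points) of every promoter DMR in 26 gene families (y axis, ordered by the median, with the number of DMRs in brackets); red points are hypermethylated and blue points hypomethylated in sh-LY75-S, and black bars are medians. EMT-inducing, HOX, forkhead and T-box, GATA and PAX factors lie on the left, as does the pooled group of the β-catenin destruction complex and TCF factors. Their medians run from -75 to -39.3 points. MHC, mannose receptor family, chromosome 19 zinc finger and epithelial identity genes lie on the right, with medians from 52.8 to 72.7 points.

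In the Wnt/β-catenin pathway, promoter DMRs of ligands were mostly hypermethylated and those of secreted antagonists mostly hypomethylated, but both groups were small. The hypermethylated shares were 75% of 16 ligand DMRs and 30% of 10 antagonist DMRs. The counting intervals of both shares held the background of 55.6%, so neither group was shown to differ from promoters in general. Wnt ligands had promoter DMRs in 10 of 18 genes, 12 regions hypermethylated and 4 hypomethylated. WNT10B reached 100 points and WNT5A had 80 points. WNT7B had -90.6, -68.8 and 83.6 points, in regions centred 5542, 4542 and 1542 bp inside the gene from its canonical TSS. WNT3 had 43.2 points over its TSS and 50.0 points in another region, whereas WNT3A had -29.9 points and WNT9A -45.0 points. Of the receptors, FZD9 had 83.7 points and FZD10 36.4 and 36.8 points, and FZD5 and the co-receptor LRP5 had -25.5 and -56.3 points. Secreted antagonists, which bind ligands or receptors from outside, had 7 hypomethylated and 3 hypermethylated DMRs in 7 of 10 genes. SFRP5 had -72.7 and -47.5 points and DKK3 -54.8 points. The gains lay at SFRP2, which was mixed with 66.4 and -33.9 points, at FRZB (51.5 points) and at WIF1 (36.6 points). In the group of the destruction complex, which degrades β-catenin, and the TCF factors, 6 DMRs were hypomethylated and 4 hypermethylated. The few with 50 points or more were losses, and lay at AXIN1, CSNK1A1, APC2 and LEF1 alone. AXIN1 had -78.3 points (chromosome 16, 401001 to 402000) and CSNK1A1 -100 points, whereas AXIN2 had 34.0 points. Of the TCF factors, LEF1 had -72.8 and -66.7 points and TCF7 -34.9 and 28.4 points. APC2 had -67.0 points over its TSS and 30.9 and 29.8 points farther in. For AXIN1, APC2, WNT3 and other genes that the study followed up, the direction belongs to the choice of sign described above.

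TGF-β and BMP ligands, receptors and SMADs had 16 hypomethylated and 9 hypermethylated promoter DMRs in 18 of 35 genes. The ligand genes were divided. BMP6 (-99.9 points), TGFB2 (-81.0 points), BMP4 (-52.5 to -27.0 points) and TGFB1 (-39.6 and -30.3 points) were hypomethylated. INHBB (-44.0 points) and BMP8B (-33.5 points) were too. Gains alone were found at BMP7 (44.2 points), BMP15 (41.9 points), BMP8A (38.8 points) and INHA (32.5 and 36.7 points), and BMP2 had -41.8 and 48.1 points. The inhibitory SMAD7 was hypermethylated by 78.7 points. Notch receptors, ligands and HES/HEY factors had 11 hypomethylated and 8 hypermethylated DMRs. JAG2 had -57.4 and -37.1 points and HEY2 -84.1 points, against 97.7 points at HES3 and 100 points at NOTCH4. The genes that the study listed for EMT were chosen on these libraries, so they are not independent of them. Of 77 with a reachable promoter, 49 had promoter DMRs, 36 regions hypermethylated and 41 hypomethylated. The differences ran from -100 points at FGF5 to 100 points at EGFR, both in regions inside the gene. FGF5 was mixed, as the region over its TSS had 79.2 points.

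Promoter DMRs of the zinc finger (ZNF) genes of chromosome 19, many of which encode repressors of transposable elements, were mostly hypermethylated in SKOV3-E cells. Of 240 with a reachable promoter, 82 (34.2%) had promoter DMRs, a share close to that of all genes, but 92 of their 110 DMRs (83.6%) were hypermethylated, with a median of 58.6 points. Gains alone were found in 66 genes, losses alone in 13 and both in 3. The other promoters of chromosome 19 had 345 hypermethylated DMRs of 641 (53.8%) and a median of 28.1 points. The gap was present in intermediate regions (91.2 against 54.1%) and in CpG-rich ones (75 against 45.4%), but not in CpG-poor ones, where 3 of 6 DMRs (50%) were hypermethylated against 69 of 103 (67.0%). ZNF135, ZNF100 and ZNF671 reached 100 points, ZNF432 99.7 points, ZNF418 96.7 points and ZNF844 91.7 points. ZNF584 (-66.4 points) and ZNF329 (-58.0 points) were among those that lost methylation, and ZNF331 was mixed, with 93.5, -100 and 41.7 points. In the comparison of LY75-KO-S with LY75-R-S, 17 of 36 DMRs at these promoters were hypermethylated in LY75-KO-S. ZNF genes arose by duplication, and reads of near-identical copies may be placed on the wrong one.

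The promoters of the targeted gene and of 1 relative were hypermethylated. LY75 had 87.7 points over its TSS (chromosome 2, 160761001 to 160762000, 62 CpGs) and 70.5 points in the next region, inside the gene (160760001 to 160761000, 41 CpGs). Its shRNA acts on the mRNA, so these values do not check the knockdown. No promoter region of LY75 was listed in LY75-KO-S against LY75-R-S. PLA2R1, a relative of LY75, had 57.9 and 26.7 points, and neither MRC1 nor MRC2 had a promoter DMR. Genes of antigen presentation had 6 hypermethylated and 2 hypomethylated DMRs. HLA-F had 82.5 points and the region shared by the immunoproteasome genes PSMB8 and PSMB9 85.0 points. NLRC5, which activates MHC class I genes, had -99.3 points. HLA genes are polymorphic and alike, which makes placement of their reads uncertain.

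Among the enzymes that write and erase methylation, 5 of 9 had promoter DMRs. DNMT3B, a de novo methyltransferase, had -46.7 points, DNMT1 27.5 points and its partner UHRF1 36.9 points. DNMT3L had 45.9 and 73.8 points, and TET3, which oxidizes methylated cytosine, had -73.9 and 45.3 points. In families with many copies, olfactory receptors had 19 hypermethylated and 9 hypomethylated DMRs, histone genes 12 and 12, and cancer-testis antigens of chromosome X 9 and 7. The cancer-testis antigens had DMRs in 16.5% of 85 genes and the olfactory receptors in 19.6% of 112, below the 34.0% of all genes.

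Where neighbouring regions were both listed, they mostly had the same direction. Of 5360 pairs of adjacent DMRs, 4410 (82.3%) did, while 43081 DMRs had no adjacent DMR of their direction. Runs of 3 or more adjacent DMRs of a single direction numbered 516, of which 369 were hypermethylated, and runs of 5 or more numbered 27, of which 17 were hypermethylated and 10 hypomethylated. Of the 10 hypomethylated runs of 5 or more, 7 touched a promoter, and of the 17 hypermethylated ones, 2 did. The longest run covered 8 kb over and upstream of FOXD3, a factor of the neural crest and pluripotent cells (chromosome 1, 63783001 to 63791000, 561 CpGs), with -96.2 to -29.8 points. Several other hypomethylated runs lay in or beside homeobox or zinc finger genes. These were HMX1 (6 kb, median -49.9 points), NKX1-1 (5 kb, -64.6 points), ZNF503 (5 kb, -87.0 points) and HOXD3 (5 kb, -90.4 points). The run at ZIC1 and ZIC4 had a median of -38.9 points, that near SP9 -57.4 points and that at KLF16 -50.7 points. The last hypomethylated runs lay at SHANK2 (-65.7 points), a scaffold gene of synapses, and ISYNA1 (-58.0 points), a gene of inositol synthesis. The longest hypermethylated runs, of 7 kb, lay in KCNT1, a potassium channel gene (chromosome 9, median 44.3 points), and between genes near LHX3 (42.7 points) and far from GATA5 (39.1 points). A run of 6 kb covered the end of APC2 (44.8 points), opposite to the TSS of that gene. The hypermethylated runs at promoters were those of ESRP2 (chromosome 16, 68269001 to 68274000, median 93.9 points) and SEPTIN9, a septin cytoskeleton gene (chromosome 17, 75278001 to 75283000, median 100 points).

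**Figure D5:**
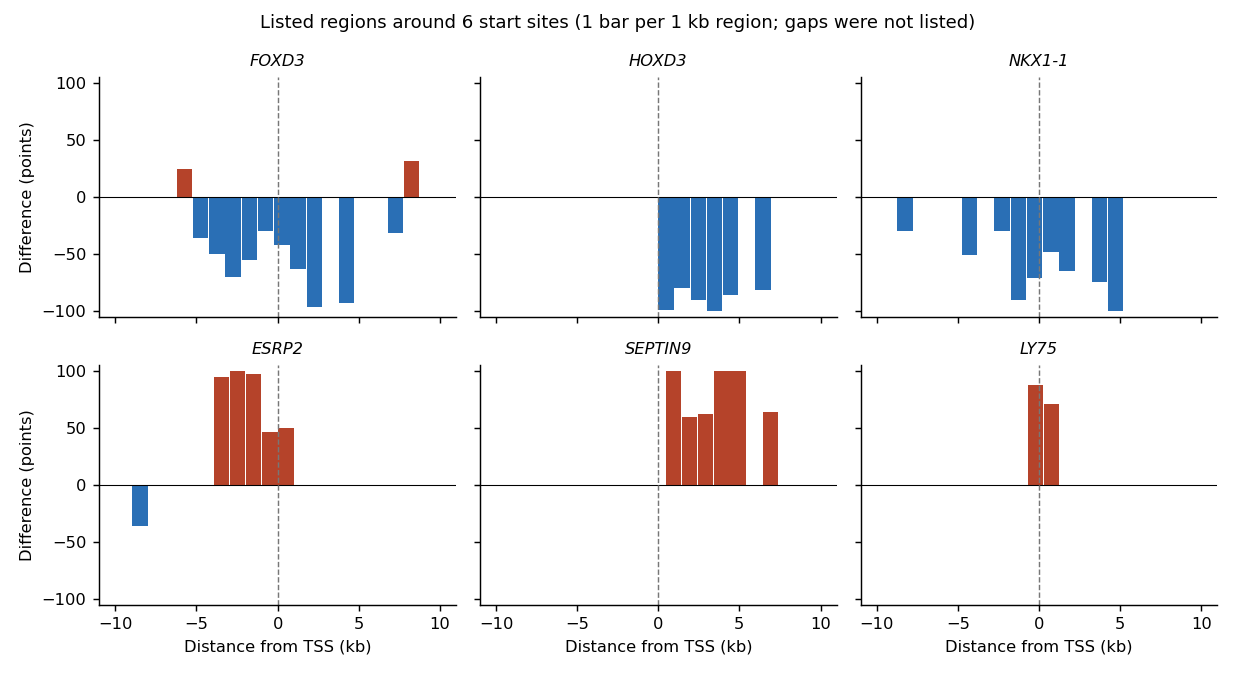
Methylation difference (y axis, percentage points) of each DMR within about 10 kb of the canonical TSS of FOXD3, HOXD3, NKX1-1, ESRP2, SEPTIN9 and LY75 (x axis, kb along the direction of the gene); a bar is a region of 1 kb, red hypermethylated and blue hypomethylated in sh-LY75-S, and gaps are regions not listed. Losses surround FOXD3 and NKX1-1 and lie just inside HOXD3, down to -100 points. Gains lie upstream of ESRP2 and inside SEPTIN9, up to 100 points, and LY75 has 2 gains, over its TSS and just inside the gene.

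For context, shared regions were hypermethylated about as often in LY75-KO-S whichever direction they had in sh-LY75-S. The comparison of LY75-KO-S with LY75-R-S shares no library with shC-S vs. sh-LY75-S. The sign of that comparison rests on how the study composed its mix of clones, and the order of names would reverse it. Of 5221 shared regions hypermethylated in sh-LY75-S, 56.5% were hypermethylated in LY75-KO-S, and of 3124 hypomethylated ones, 54.0%. The share with the same direction was 52.4% in CpG-poor, 52.5% in intermediate and 54.9% in CpG-rich DMRs, and 53.1% at promoters. With the sign of that comparison turned, these shares would be 47.6, 47.5, 45.1 and 46.9%. By family, HOX genes had 9 hypermethylated and 8 hypomethylated promoter DMRs in LY75-KO-S, forkhead factors 8 and 5, and epithelial identity genes 3 and 3. CEND1 and TWIST1 were among the named genes with the same direction in both, by -78.4 and -50.5 points in the region of chromosome 11 from 789001 to 790000 and by 33.6 and 60.2 points over the TSS of TWIST1.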

How the data were processed

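RRBS libraries of 4 SKOV3 clones were sequenced with single reads of 50 bases. Per the labels and the study's methods, reads were trimmed with Trim Galore 0.4.1, aligned with Bismark 0.16.1 to hg19 and compared with methylKit in windows of 1000 bp. The authors deposited, for each window past their thresholds (25 points, q-value under 0.01), a signed score in percentage points, which is the difference in percent methylation between libraries, with its p-value and q-value. These columns are the authors' own comparison, and the deposited tables hold no values of single samples, so the differences are described as deposited, and the p-values and q-values were used for 1 stricter selection alone and are not printed. The smallest coverage accepted is not given in the sources used here. A bisulfite read without a molecular identifier can be a copy, depth is unknown, and no test between conditions was made.

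Windows were annotated on GRCh37 with GENCODE release 44 (protein-coding genes whose symbol has a RefSeq transcript) and families were found by symbol; all sequences were read from the same genome. Some genes and sequences are not reported here. CpGs and MspI fragments were counted in the reference, and the counting was tested on simulated data. Genes were named by rule: LY75, AXIN1, the genes the study selected, its EMT markers, GRHL2, TGFB1I1 and RUNX1; the 8 per direction with the largest difference over a canonical TSS among regions with 50 or more CpGs; promoters on the 5 longest runs per direction; and the highest and lowest member of each family among regions with 20 or more CpGs. Members and gene lists were chosen with earlier results of these data known, and the density classes, the chromosome X split and the comparison of chromosome 19 promoters were added after the values had been seen. Computations ran in Python 3.11.15 (pandas 2.3.3, numpy 2.4.6), with figures from matplotlib 3.10.9.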

Additional observations from a re-analysis of the deposited data

Results flagged for a closer look

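Of 76 promoter regions of the genes named for the study, for their TSS or for a run, 8 were listed in both shC-S vs. sh-LY75-S and LY75-KO-S against LY75-R-S, 5 with the same direction and 3 with opposite directions. The opposite ones were a region of HOOK1 (chromosome 1 from 60281001; 99.8 points in sh-LY75-S and -33.3 points in LY75-KO-S), a region of HUWE1 (chromosome X from 53710001; 47.5 and -33.2 points) and the TSS region of TGFB1I1 (chromosome 16 from 31483001; 76.3 and -37.5 points). With 1 library per clone, these differences between the comparisons were not tested, and they hold for the sign of LY75-KO-S against LY75-R-S used in the report.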

How the results depend on the processing

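No paired analysis was possible because each clone had 1 library and no result comes from a test, and for the same reason no library could be left out. A share was taken as moved when it changed by more than the 95% counting interval of its main value (0.414 points either side for all DMRs). Neighbouring DMRs are not independent, so such intervals are narrow, and most moves were small. The hypermethylated share of 64.7% was 66.5% at 50 points or more, 66.9% at 70 points or more, 65.8% at a q-value of 1e-10 or less, 65.2% in reachable regions and 66.6% with 10 or more CpGs. The median absolute difference of 50.0 points was 54.3 points at the stricter q-value. The CpG-rich minus CpG-poor share of -3.72 points turned to 0.108 points with a boundary of 30 CpGs and to 2.34 points with classes of 80 or more and under 10 CpGs, so its sign depended on the classes. The CpG-rich and CpG-poor listing rates, 17.0 and 11.6%, were 8.17 and 6.31% at 50 points, 4.17 and 3.49% at 70 points and 16.4 and 9.22% at the stricter q-value, and the CpG-poor rate was 10.3% with fragments up to 300 bp. The promoter share of 55.6% was 57.2 and 58.0% at 50 and 70 points, 54.3% on the autosomes, 58.3% with 5 kb windows and 64.5% for regions over a TSS. The share of genes with a promoter DMR, 34.0%, was 19.9 and 11.4% at 50 and 70 points, 31.3% at the stricter q-value, 29.2 and 41.9% with windows of 1 and 5 kb, 16.9% over the TSS alone and 30.8% of all protein-coding genes. The spread over chromosomes, 18.9 points, was 22.3 and 27.8 points at 50 and 70 points. Of the 27 runs of 5 or more, 3 and 1 were left at 50 and 70 points, and 107 runs were found with 1 unlisted region allowed between neighbours. The share of CpG-rich DMRs with the same direction as in LY75-KO-S against LY75-R-S, 54.9%, was 48.8% at 50 points or more in both. The step from the sparsest to the densest class of neighbourhood, 27.6 points, was 31.8 and 33.4 points at 50 and 70 points, 29.9 points on the autosomes and 22.9 points with 5 Mb blocks, all chosen after seeing the data. Over the families, 55 of 66 alternative values stayed within their intervals, 7 moved and 4 crossed 50%: claudins (40% over the TSS alone), Notch genes (66.7% at 50 points or more) and the study's EMT list (53.4% with windows of 1 kb and 58.6% over the TSS). The cause of these changes was not tested. Unknown depth limits every value, since a complete difference may rest on few reads.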
